A study of Rattus norvegicus with 9 samples.

Results

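Hbb, Hba1, Alas2 and Slc4a1 are 4 genes of the red blood cell that were read here in whole kidney tissue, out of 26115 gene names on a rat expression array. They were picked by name, and the choice rests on their own values in these kidneys: the globin and Alas2 readings were low on some arrays of perfused kidneys and the Slc4a1 reading was not. For that reason the differences between the groups given for these 4 genes are a description and carry no test. The array holds 30367 probes of the gene class (a probe is a stretch of DNA printed on the glass that captures 1 transcript), of which 6 carry 1 of the 4 names: a pair each for Hbb and Hba1 and a single probe each for Alas2 and Slc4a1. All 6 probes passed the filter on low values, and every one of them was well above background on 9 of 9 arrays.

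The kidneys came from Fisher F344 rats in a model of donation after circulatory death, with 20 min of warm ischaemia before the kidney was removed. Kidneys that were not perfused (NP, n = 5) were compared with kidneys perfused for 4 h at 4 °C with Belzer solution, a cold organ preservation fluid, to which 3000000 mesenchymal stromal cells had been added (MSC, n = 4). These cells were grown from bone marrow of Sprague Dawley rats that carry a transgene for enhanced green fluorescent protein. The treatment label of the NP kidneys reads not perfused, while their titles name 4 h of perfusion with Belzer solution, so the labels are divided, and NP is used as the study's methods use it. If the NP kidneys were not perfused, the groups differ in the 4 h of cold perfusion as well as in the added cells, and the effects of the fluid and of the cells cannot be told apart. Ages of the donors were not given in the sources used here, each array was treated as 1 kidney, and a further array of an MSC kidney that the study discarded for poor quality was not analysed here.

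Red blood cells of mammals lose their nucleus in the bone marrow, but the youngest ones in the circulation, the reticulocytes, still hold RNA, most of it for haemoglobin. Hbb and Hba1 encode the beta and alpha chains of haemoglobin. Alas2 encodes the form of 5-aminolevulinate synthase found in red cell precursors, the enzyme that starts haem synthesis there, while Alas1 does the same step in other tissues. Slc4a1 encodes the anion exchanger called band 3 or AE1, which swaps chloride for bicarbonate across the red cell membrane. The kidney has a second source of Slc4a1: the acid-secreting intercalated cells of the collecting duct place a shorter form of the same protein on their basolateral side.

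The stretches of the 6 probes that show which piece of each transcript was read are printed 5′ to 3′, with positions on the rat build rn4 as the array files give them. For the 5′ probes of both globins the start codon ATG is in capitals, and for the 3′ probes the letters AATAAA, the signal for adding the poly(A) tail, are in capitals, so that one probe of each globin holds letters from the front of a message and the other from the tail of one. The array annotation gives both Hbb probes the same transcript but places them far apart on chromosome 1, at different copies within the beta-globin cluster, so they may not read the same message. Only the stated part of a probe is shown where the rest reads untranslated sequence or the coding frame is not known.
Hbb 5′ probe, last 30 of 60 bases, chr1:161620134-161620193, minus strand: actcagaaacagacaccATGgtgcacctga
Hbb 3′ probe, bases 31 to 60, chr1:161584872-161584931, minus strand: tttgaaaatctgtcctactAATAAAaggca
Hba1 5′ probe, bases 18 to 60, chr10:15585140-15585199, minus strand: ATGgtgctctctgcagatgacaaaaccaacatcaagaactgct
Hba1 3′ probe, bases 28 to 57, chr10:15584360-15584419, minus strand: tcttggtctttgAATAAAgcctgagtagga
Alas2 probe, whole, chrX:39810353-39810412, plus strand: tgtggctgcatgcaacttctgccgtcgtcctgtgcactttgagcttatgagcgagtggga
Slc4a1 probe, first 30 of 60 bases, chr10:91455352-91455411, minus strand: agccctcatgagagacttgctgtgtccaac
By the annotation of the array the Hbb 5′ probe starts at base 0 of its transcript and the 3′ probe at base 546. The Hba1 probes start at bases 16 and 496, the Alas2 probe at base 1667 and the Slc4a1 probe at base 3894. The Slc4a1 probe therefore lies far towards the 3′ end, which the red cell form and the kidney form share, and it cannot tell these forms apart. The globin probes differ in which copies they can capture: the Hbb 3′ probe is also listed for the beta-chain copies Hbbl1 and Hbb-b1, and the Hba1 5′ probe is also listed for Hba-a2, so these readings may sum several copies. Hba1 is named Hba-a1 in the present RefSeq table. In total 16 probes were compared with each other, those of the globins, Ahsp and Alas2 and an unnamed one described further on. The longest unbroken run of identical bases in any pair was 14, between an Hbb-b1 probe and the Hbe2 probe. Likeness with mismatched bases was not examined.

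The RefSeq table of promoters (build GRCr8) held 3 of the 4 genes and is shown for both chains of haemoglobin, whose readings ran together, as the 250 bases before the annotated start. Capitals mark matches on either strand to AGATAA and TGATAA (forms of the GATA motif), CACCC (the core of the motif read by red cell Kruppel-like factors) and CCAAT, a box found in many promoters. A match on the opposite strand appears as its reverse complement, so that the letters ATTGG stand for the CCAAT box there.
Hbb promoter, chr1:167663722-167663971, minus strand: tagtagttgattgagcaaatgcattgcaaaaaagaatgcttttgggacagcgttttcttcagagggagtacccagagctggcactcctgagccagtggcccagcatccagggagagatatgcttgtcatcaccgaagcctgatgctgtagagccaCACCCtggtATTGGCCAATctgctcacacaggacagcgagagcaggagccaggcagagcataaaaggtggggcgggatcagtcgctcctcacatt
Hba-a1 promoter, chr10:15842581-15842830, minus strand: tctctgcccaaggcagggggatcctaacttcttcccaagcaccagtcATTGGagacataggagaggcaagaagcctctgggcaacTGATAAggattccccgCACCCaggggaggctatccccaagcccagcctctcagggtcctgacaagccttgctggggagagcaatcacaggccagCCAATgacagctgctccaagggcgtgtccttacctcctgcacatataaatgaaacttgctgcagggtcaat
The Hbb window held CACCC 95 bases before the start, and CCAAT on both strands, at 86 and 81 bases before it, where the opposed pair abuts without overlap. The Hba-a1 window held TGATAA at 165 bases, CACCC at 149 bases and CCAAT at 203 and 71 bases before the start. The Alas2 window held AGATAA at 136 bases before the start, for a gene with 8 transcripts in the table and so with more than 1 possible start. Of the 33469 promoters in the table, 49.2% held CACCC, 34.02% held CCAAT, 10.3% held AGATAA and 7.97% held TGATAA in a window of the same length, so that such matches are common and are given as a description of the letters only.

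Each array held 62976 spots, and between 65.6% and 74.3% of its gene spots were well above background, with no saturated gene spot. The arrays lay on 2 slides: NP replicates 1 to 3 and MSC replicates 1 and 2 on slide 1, and the others on slide 2. All 8 defining markers of kidney segments, from podocytes (Nphs1) to the collecting duct (Aqp2), were measured and well above background on all 9 arrays. Over the 13774 genes tested with limma, 0% were called, a call being a fold change over 1.5 together with a false discovery rate (FDR) below 0.05, and the smallest FDR of any gene was 0.1001. The study, with its own processing of these kidneys and the same thresholds, reported 2 genes higher in MSC, Tmem52b and Calb1. Why the counts differ was not tested. At an unadjusted p under 0.05, 1611 genes passed: 5.09% of the genes tested were lower and 6.61% were higher in MSC, and the median log2 fold change of all genes was -0.0058.

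The beta chain showed the pattern on which the genes were chosen. On the Hbb 5′ probe the log2 intensities in NP replicates 1 to 5 were 14.82, 13.63, 14.07, 14.91 and 14.48. In MSC replicates 1 to 4 they were 10.21, 14.43, 12.37 and 13.77. Below every NP kidney lay MSC replicates 1 and 3, while MSC replicates 2 and 4 lay inside the NP range. The group means were 14.38 ± 0.53 (SD, n = 5) and 12.70 ± 1.87 (SD, n = 4), a log2 fold change of -1.68 (SE 0.73), or 3.21-fold lower in MSC. The spread within the MSC kidneys, 4.22 log2 units from lowest to highest, was wider than that difference.

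The Hbb 3′ probe placed the arrays in the same manner at the low end. It read 17.46, 17.80, 17.69, 17.93 and 17.69 in NP replicates 1 to 5 and 14.67, 17.89, 16.52 and 17.74 in MSC replicates 1 to 4. Again MSC replicates 1 and 3 were below all NP kidneys and the other MSC kidneys were within their range. The log2 fold change was -1.01 (SE 0.56), and without MSC replicate 1 it was -0.33. The NP kidneys spanned 0.469 log2 units on this probe and 1.28 on the 5′ probe. After normalisation they did not keep their order: NP replicate 1 was second highest on the 5′ probe and lowest on the 3′ probe. Before normalisation NP replicate 1 was not the lowest on the 3′ probe, with a raw intensity of 240405. NP replicate 2 then had the lowest NP reading on both probes, at 166444 on the 3′ probe. The part of the normalisation in the change of order was not tested.

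The alpha chain followed. On the Hba1 5′ probe NP replicates 1 to 5 read 16.29, 15.22, 15.47, 16.21 and 15.64, and MSC replicates 1 to 4 read 11.63, 15.68, 13.52 and 15.05. Far below the NP range were MSC replicates 1 and 3, MSC replicate 4 lay just under its lowest kidney, and MSC replicate 2 was inside it. The means were 15.76 ± 0.47 (SD, n = 5) and 13.97 ± 1.80 (SD, n = 4), and the log2 fold change was -1.80 (SE 0.70), or 3.47-fold lower in MSC. On the Hba1 3′ probe the NP kidneys read 18.20, 18.56, 18.62, 18.78 and 18.54 and the MSC kidneys 16.04, 18.74, 17.80 and 18.72, so that only MSC replicates 1 and 3 of the 4 MSC arrays fell outside the NP range. The log2 fold change on that probe was -0.71 (SE 0.48), and without MSC replicate 1 it was -0.12. On both globins the 3′ probe thus gave a smaller fold change than the 5′ probe, and the reason was not tested. The highest raw intensity of any globin spot average was 458525, on the Hba1 3′ probe in NP replicate 4. The brightest gene spot of that array read 530206, and the scanner saturated at 779704 or more. The scanner limit cannot show whether so bright a probe still follows the amount of RNA, which was not tested.

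Alas2, the enzyme rather than a chain of haemoglobin, read 12.51, 11.16, 11.54, 12.44 and 11.79 in NP replicates 1 to 5. It read 8.26, 11.52, 9.61 and 11.16 in MSC replicates 1 to 4. Once more MSC replicates 1 and 3 were below all NP kidneys, MSC replicate 2 was among them, and MSC replicate 4 was level with the lowest, NP replicate 2. The means were 11.89 ± 0.58 (SD, n = 5) and 10.14 ± 1.502 (SD, n = 4), a log2 fold change of -1.74 (SE 0.61), or 3.35-fold lower in MSC. In MSC replicate 1 the raw intensity of Alas2 was 430, where the median negative control read 237, so the difference may be understated there. From the processed signal of the scanner files the log2 fold change was -2.15.

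Slc4a1 did not share the pattern. Its log2 intensities were 13.51, 13.23, 13.03, 13.26 and 13.34 in NP replicates 1 to 5 and 13.33, 13.18, 13.18 and 13.73 in MSC replicates 1 to 4. MSC replicates 1 and 3, the kidneys with the lowest globin readings, lay inside the NP range, and MSC replicate 4 was above it. The means were 13.27 ± 0.17 (SD, n = 5) and 13.36 ± 0.26 (SD, n = 4), with a log2 fold change of 0.08 (SE 0.13). The 9 kidneys together spanned less on Slc4a1 than the 5 NP kidneys alone spanned on Alas2, whose NP range was 1.35 log2 units: the Slc4a1 range was 0.476 in NP and 0.551 in MSC.

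**Figure D1:**
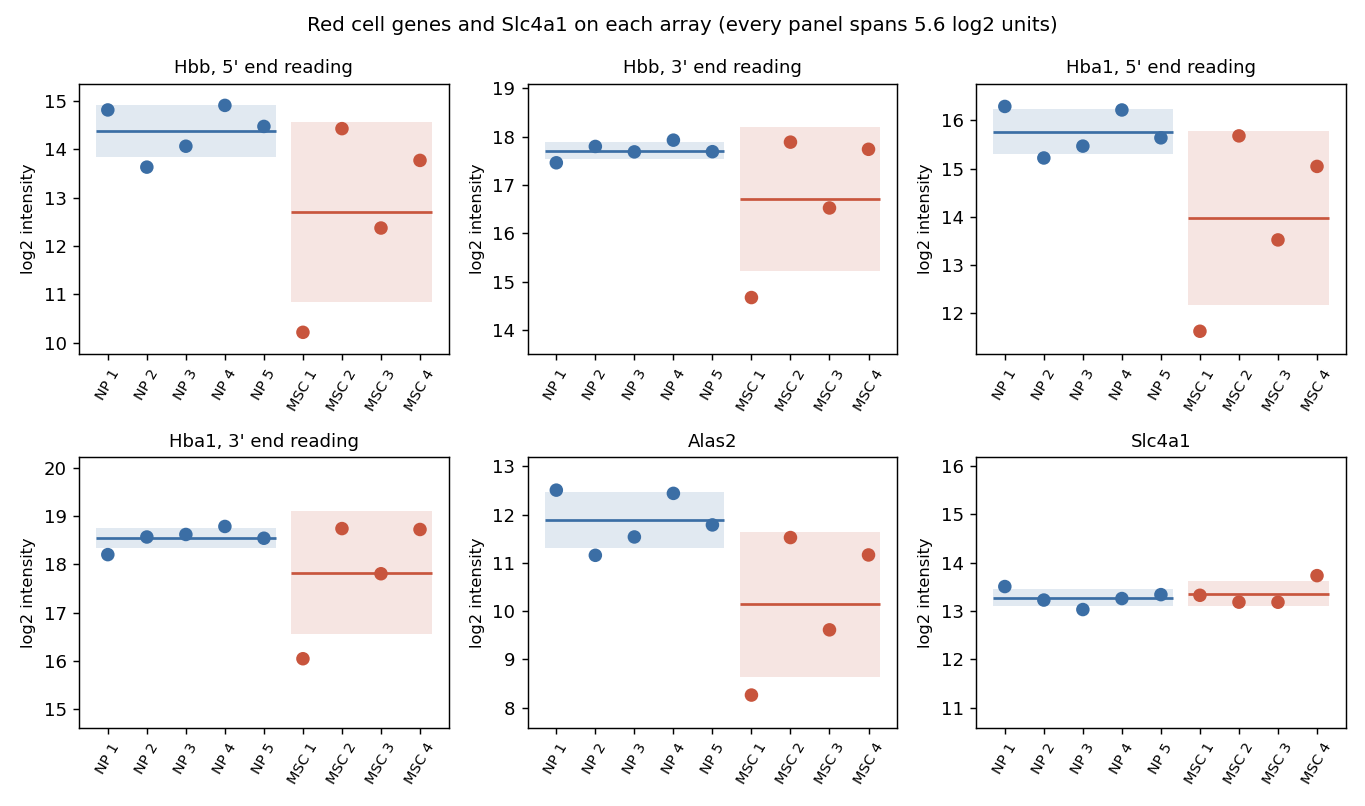
Log2 intensity of the 6 probes (vertical axis, 5.6 log2 units in every panel) on each of the 5 NP arrays (blue) and 4 MSC arrays (red); lines are group means and shaded bands are ± 1 SD. On the globin and Alas2 probes MSC replicates 1 and 3 lie below all NP arrays, from 8.26 on Alas2 to 17.80 on the Hba1 3′ probe, while the Slc4a1 readings stay between 13.03 and 13.73.

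The plot of the 6 probes by array puts the pieces side by side. Set against the NP mean, the log2 difference in MSC replicate 1 was -4.17 on the Hbb 5′ probe, -4.13 on the Hba1 5′ probe and -3.62 on Alas2. In MSC replicate 3 the same differences were -2.01, -2.24 and -2.27. In MSC replicate 2 they were 0.05, -0.09 and -0.36, and in MSC replicate 4 they were -0.61, -0.72 and -0.72. The low arrays were on different slides. Within slide 1 the difference between the group means was -1.85 on the Hbb 5′ probe, -2.003 on the Hba1 5′ probe, -1.84 on Alas2 and -0.0001 on Slc4a1. Within slide 2 it was -1.62, -1.64, -1.72 and 0.16. Each slide thus held 1 MSC kidney with low and 1 with higher readings. Without MSC replicate 1 the log2 fold change of the 5′ probe of Hbb shrank to -0.86, that of the 5′ probe of Hba1 to -1.02 and that of Alas2 to -1.12. Without MSC replicate 2 they grew to -2.26, -2.36 and -2.20. In tissue RNA fewer red cells and less RNA per red cell cannot be told apart, and how much blood each kidney still held was not measured on the arrays.

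On the normalised values the 5′ globin probes and Alas2 also moved together among kidneys that were not low. The 3′ globin probes did not move with them there on those values, and r was not computed on raw intensities. Across the 9 arrays Pearson's r was 0.995 between the 5′ probes of Hbb and Hba1, 0.985 between Hbb and Alas2 and 0.992 between Hba1 and Alas2. These are descriptions over 9 kidneys that share the slides and the normalisation, and MSC replicates 1 and 3 stretch the range. With those 2 arrays left out, r over the remaining 7 arrays was 0.956, 0.941 and 0.975. The 3′ probes of both globins followed each other, with r of 0.992 over 9 arrays and 0.912 over 7. The 5′ and 3′ probes that carry the same gene name did not stay together once the low arrays were out: r went from 0.945 to -0.098 for Hbb and from 0.905 to -0.38 for Hba1. Raw intensities, which also carry the brightness of each array, placed the NP kidneys otherwise. NP replicate 1 was above NP replicate 2 in raw intensity on both Hbb probes, with 240405 against 166444 on the 3′ probe. How far the normalisation shaped these r values was not tested. Over the same 7 arrays r with Alas2 was -0.27 for the Hbb 3′ probe and -0.40 for the Hba1 3′ probe. Across the chains it was -0.23 between the Hbb 5′ and Hba1 3′ probes and -0.19 between the Hbb 3′ and Hba1 5′ probes. Slc4a1 gave r between 0.0010 and 0.098 with the 5 other probes over the 9 arrays.

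**Figure D2:**
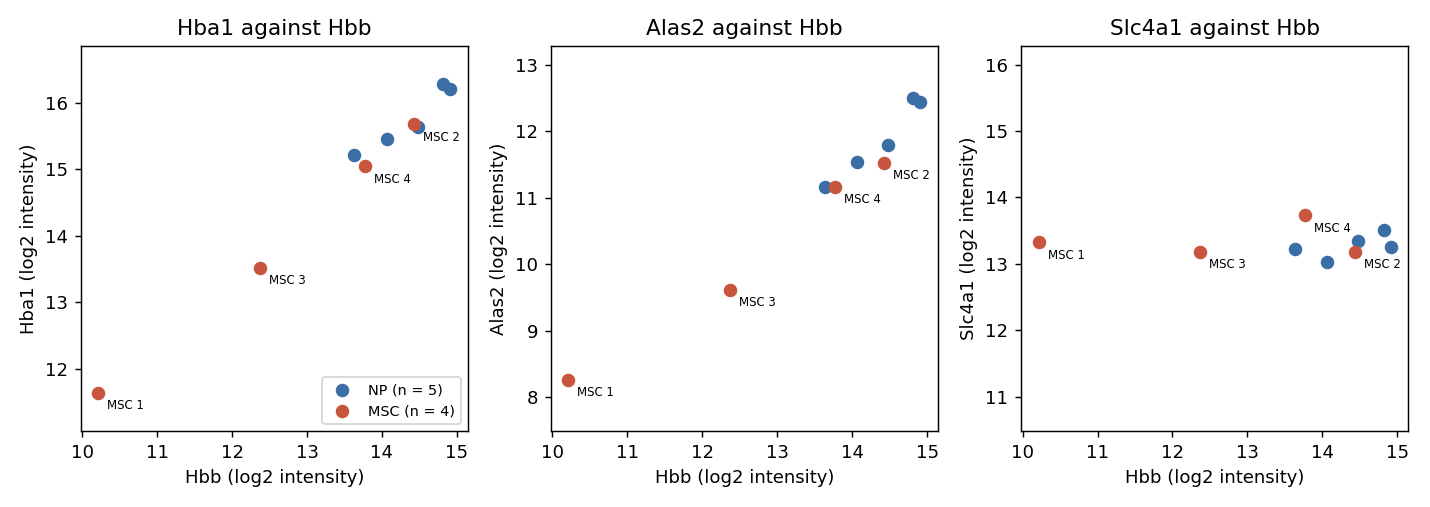
Log2 intensity of Hba1, Alas2 and Slc4a1 (vertical axes) against that of Hbb (horizontal axes), each gene by its probe of largest variance, in 5 NP kidneys (blue) and 4 MSC kidneys (red, labelled by replicate). Hba1 and Alas2 fall along a line with Hbb, with r of 0.995 and 0.985, and Slc4a1 runs flat, with r of 0.055.

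The genes whose levels over the 9 arrays were most like the chosen ones were named by a rule, the 5 of highest r for each. For Hbb they were Hbe2 (r = 0.996), an embryonic epsilon-type beta chain by name, LOC689064 (r = 0.995), which RefSeq now calls Hbb-bs, Hbb-b1 (r = 0.992), Ahsp (r = 0.961), the chaperone that binds free alpha chains, and the unnamed probe A_64_P127742 (r = 0.957). Hba1 had the same 5, led by LOC689064 at 0.999. The Hbb-b1 probe is also listed for Hbb-bs, so its reading may not be separate from that of LOC689064. Alas2 had A_64_P127742 (r = 0.989), LOC689064 (r = 0.987), Ahsp (r = 0.980), Hbe2 (r = 0.978) and Rhd (r = 0.972), a carrier of Rh blood group antigens in the red cell membrane. With MSC replicates 1 and 3 left out, r over 7 arrays was between 0.887 and 0.994 for these pairs. The number of genes with r over 0.9 was 12 for Hbb, 13 for Hba1 and 13 for Alas2, of 13770 compared, and 10 genes were over 0.9 with each of the 3.

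The unnamed probe is annotated as unknown at chr1:85234103-85234162 of rn4, minus strand, and is printed because no gene name says what it reads. The capitals mark the repeat unit of 33 bases that starts over within the probe, where the last 27 bases are identical to the first 27.
A_64_P127742: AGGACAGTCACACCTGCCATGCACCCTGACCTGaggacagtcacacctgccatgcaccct
Its log2 intensities were 12.41, 10.97, 11.24, 12.24 and 11.47 in NP replicates 1 to 5 and 8.28, 11.26, 9.05 and 10.57 in MSC replicates 1 to 4. MSC replicates 1, 3 and 4 were below all NP kidneys, where on Alas2 only MSC replicates 1 and 3 of the 4 were, and its log2 fold change was -1.88 (SE 0.57, FDR 0.335).

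For Slc4a1 the genes most alike were Klhdc8a (r = 0.935), Gal3st1 (r = 0.933), an enzyme that sulphates glycolipids, Arl4d (r = 0.924), Tuba4a (r = 0.921), an alpha-tubulin, and RGD1561328 (r = 0.918). No globin gene was among them. With MSC replicate 4 and NP replicate 1 left out, the 2 arrays farthest from the median of Slc4a1, r fell to between 0.621 and 0.795, so a good part of this likeness rested on those 2 arrays. Slc4a1 had 8 genes with r over 0.9 and none over 0.95, where Hbb had 5 and Alas2 had 9.

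The other globin genes and Ahsp were described as a list chosen with these data known. Of 8 names on the array, 4 passed the filter, and 4 of 4 were lower in MSC at an unadjusted p under 0.05, against 5.09% of all genes. None was called. The list was chosen with the globin values of these kidneys known, so the count is no independent evidence. The Hbb-b1 probe is also listed for Hbb-bs, the present name of LOC689064, so these readings may not be separate. Their median log2 fold change was -1.60, and without MSC replicate 1 it was -0.82. Hbb-b1 read 17.71, 17.21, 17.40, 18.10 and 17.64 in NP kidneys and 13.69, 17.63, 15.84 and 16.85 in MSC kidneys, with a log2 fold change of -1.61 (SE 0.65, FDR 0.395). Only MSC replicate 2 of the 4 was inside the NP range. LOC689064 differed by -1.87 (SE 0.72), Hbe2 by -1.60 (SE 0.70) and Ahsp by -0.80 (SE 0.31). The genes Hbe1, Hbg1 and Hbz, chains of the embryo and foetus by name, and LOC287167, now Hba-a3, did not pass the filter. The mean of the 4 measured genes, each centred on its mean over the 9 arrays, ran from 0.11 to 1.11 in NP and from -2.8004 to 0.66 in MSC.

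All 14 genes of the list of haem synthesis beyond Alas2 were measured. By limma 0 of 14 passed an unadjusted p under 0.05 in either direction, near the 5.09% and 6.61% of all genes, and the median log2 fold change was 0.0083. Alas1, the housekeeping form of the enzyme, read between 15.999 and 16.56 in NP and between 16.18 and 16.52 in MSC, with a log2 fold change of 0.06 (SE 0.13). Alad, the next enzyme of the pathway, differed by 0.05 (SE 0.10) and Uros by 0.17 (SE 0.09). The smallest p in the list was that of Abcb10, a transporter of the inner mitochondrial membrane, at -0.35 (SE 0.16, FDR 0.440).

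Of 22 genes of the red cell membrane on the array, 12 passed the filter. Of these, 1 was lower and 1 was higher at an unadjusted p under 0.05, close to the 5.09% and 6.61% of all genes, and the median was -0.01. Rhd read 9.58, 8.68, 8.82, 9.50 and 9.04 in NP kidneys and 7.72, 8.93, 8.22 and 8.66 in MSC kidneys. MSC replicates 1 and 3 were the lowest, MSC replicate 4 lay just under the NP range, and Rhd was not well above background on MSC replicate 1, so its log2 fold change of -0.74 (SE 0.27, FDR 0.356) may understate the difference. Slc29a1, a nucleoside transporter of many cell types, was the higher one at 0.40 (SE 0.18, FDR 0.423). The brightest of the list, Epb4.1 and Cd59, which many tissues express, differed by -0.20 (SE 0.12) and 0.21 (SE 0.12). Rhag and Epb42, which are close to specific for red cells, did not pass the filter, nor did the red cell transcription factors Gata1 and Klf1.

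Of the 7 transcription factors of the red cell lineage that were measured, 1 was lower at an unadjusted p under 0.05 (5.09% of all genes), Zfpm1, a partner of GATA factors, at -0.35 (SE 0.15, FDR 0.407). The median was -0.14, with -0.06 without MSC replicate 2 and -0.25 from the processed signal of the scanner files. Ldb1 differed by 0.25 (SE 0.14) and Klf3 by -0.22 (SE 0.15). Of 19 other genes of reticulocytes and red cells, 4 were lower and 1 was higher at an unadjusted p under 0.05, beside 5.09% and 6.61% of all genes, and the median was -0.06. With 1 array left out that median ran from -0.09 (without NP replicate 1) to -0.03 (without NP replicate 5). Tspo2, a cholesterol-binding protein of red cell precursors, read 12.41 to 12.78 in NP and 12.05, 12.25, 12.21 and 12.07 in MSC, so that all MSC kidneys were below all NP kidneys, by -0.42 (SE 0.10, FDR 0.334). Isg20 differed by -0.32 (SE 0.09), Blvrb, a biliverdin reductase, by -0.27 (SE 0.10) and Bpgm, which makes the 2,3-bisphosphoglycerate that lowers the oxygen affinity of haemoglobin, by -0.28 (SE 0.11). The brightest genes of that list, Gclc and Gpx1, which many tissues express, differed by 0.03 (SE 0.14) and 0.10 (SE 0.07).

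**Figure D3:**
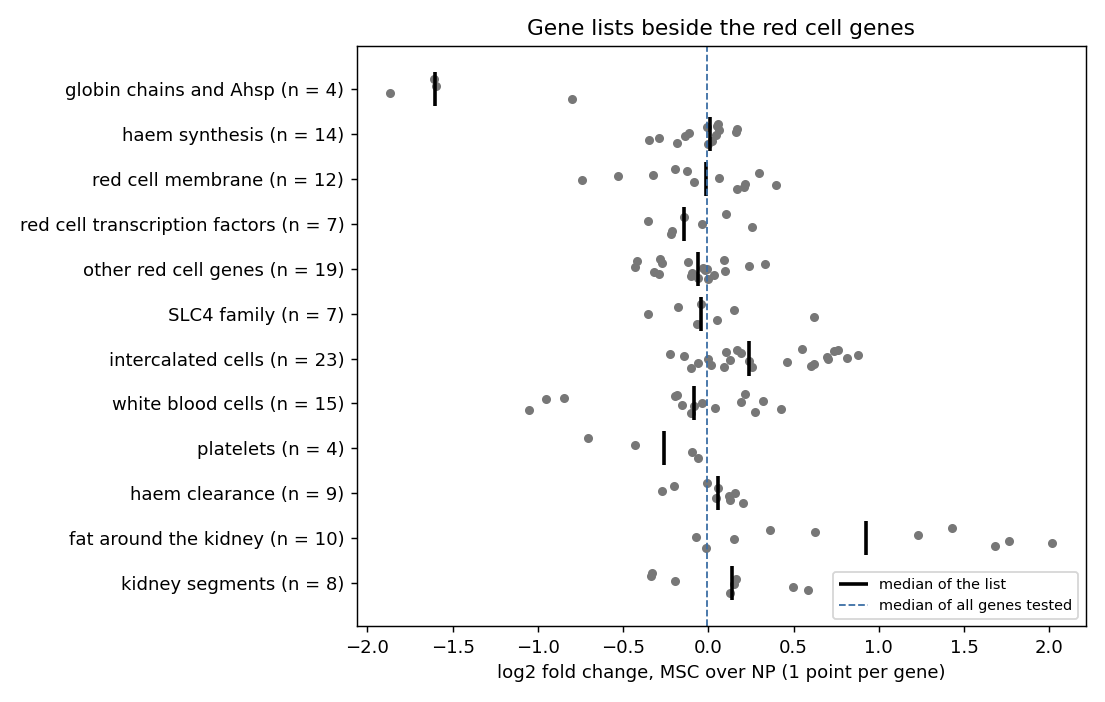
Log2 fold change of MSC over NP (horizontal axis, 1 point per gene) for the measured genes of 12 lists (vertical axis, with the number of genes); black bars are list medians and the dashed line is the median of all genes tested, -0.0058. The list of globin chains and Ahsp lies to the left with a median of -1.60, while haem synthesis, at 0.0083, and the red cell membrane, at -0.01, are centred near the median of all genes.

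Slc4a1 was also set beside its own family and beside the cells of the kidney that make it. The SLC4 family moves bicarbonate across membranes, and 7 of its 9 other members were measured. Slc4a9, an anion exchanger of intercalated cells, was the single one of the 7 to pass an unadjusted p under 0.05 (6.61% higher and 5.09% lower over all genes), at 0.62 (SE 0.21, FDR 0.347), reading 11.37, 10.34, 10.27, 10.73 and 11.08 in NP kidneys and 11.25, 11.29, 11.46 and 11.51 in MSC kidneys. NP replicate 1 lay among the MSC kidneys and the other NP kidneys below them. Slc4a4, the sodium bicarbonate cotransporter of the proximal tubule, differed by 0.15 (SE 0.17), Slc4a2 by -0.05 (SE 0.15), Slc4a3 by -0.18 (SE 0.09), Slc4a7 by -0.36 (SE 0.17), Slc4a10 by 0.05 (SE 0.29) and Slc4a11 by -0.06 (SE 0.31). Slc4a5 and Slc4a8 did not pass the filter.

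Of 23 measured genes of intercalated cells, 7 were higher and 0 were lower in MSC at an unadjusted p under 0.05, against 6.61% higher and 5.09% lower over all genes, and the median log2 fold change was 0.24. With array weights that median was 0.14. None passed the FDR. Atp6v0d2 and Atp6v1g3, subunits of the proton pump, differed by 0.76 (SE 0.16) and 0.74 (SE 0.20), both with an FDR of 0.334. Atp6v0d2 read 11.32 to 12.01 in NP and 12.43 to 12.91 in MSC, with no overlap. The brightest of the list differed less: Atp6v0a4 by 0.17 (SE 0.12) and Car2, the cytosolic carbonic anhydrase, by 0.09 (SE 0.09). The centred mean of the 23 genes ran from -0.34 to 0.07 in NP and from 0.07 to 0.38 in MSC, highest in MSC replicate 4, which was also the highest array for Slc4a1. Whether Slc4a1 RNA here came from intercalated cells or from red cells cannot be told apart with the single probe.

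Markers of other blood cells were read beside the globins, and most of them did not pass the looser threshold. Cd52, a surface protein of lymphocytes and other white cells, read 10.67, 9.56, 9.67, 10.18 and 9.90 in NP kidneys and 8.19, 9.70, 8.57 and 9.30 in MSC kidneys. The lowest were MSC replicates 1 and 3, MSC replicate 4 was also under the NP range, and the log2 fold change was -1.05 (SE 0.32, FDR 0.335). S100a8, a calcium-binding protein of neutrophils, read 7.99, 10.05, 9.07 and 8.94 in MSC replicates 1 to 4, against 9.48 to 10.27 in NP, a log2 fold change of -0.85 (SE 0.34, FDR 0.395). Here MSC replicates 1, 3 and 4 were below all NP kidneys. Lyz2 and Laptm5, the brightest white cell genes, which tissue macrophages also express, differed by 0.32 (SE 0.28) and 0.04 (SE 0.16). Of the 15 measured genes of white blood cells, 3 were lower and 1 was higher at an unadjusted p under 0.05, where all genes gave 5.09% and 6.61%. Their median was -0.08, with -0.22 without NP replicate 3 and -0.04 without NP replicate 4, and their centred mean ran from -0.29 to 0.26 in NP and from -0.30 to 0.03 in MSC.

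Platelet genes were few, with 4 of 13 past the filter, of which 2 were lower and 0 were higher at an unadjusted p under 0.05, beside 5.09% lower and 6.61% higher over all genes. Pf4, platelet factor 4, read 10.37, 9.52, 9.72, 10.02 and 9.91 in NP kidneys and 8.43, 9.40, 8.92 and 10.05 in MSC kidneys. The lowest were again MSC replicates 1 and 3, MSC replicate 2 was also below every NP kidney, and MSC replicate 4 was among them, with a log2 fold change of -0.71 (SE 0.29, FDR 0.406). Gp1bb, part of the receptor for von Willebrand factor, differed by -0.43 (SE 0.17), and Itga2b and Gp9 differed by -0.06 (SE 0.11) and -0.09 (SE 0.09). The centred mean ran from -0.06 to 0.31 in NP and from -0.39 to 0.09 in MSC. The part that these other blood cells have in the globin readings was not tested.

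**Figure D4:**
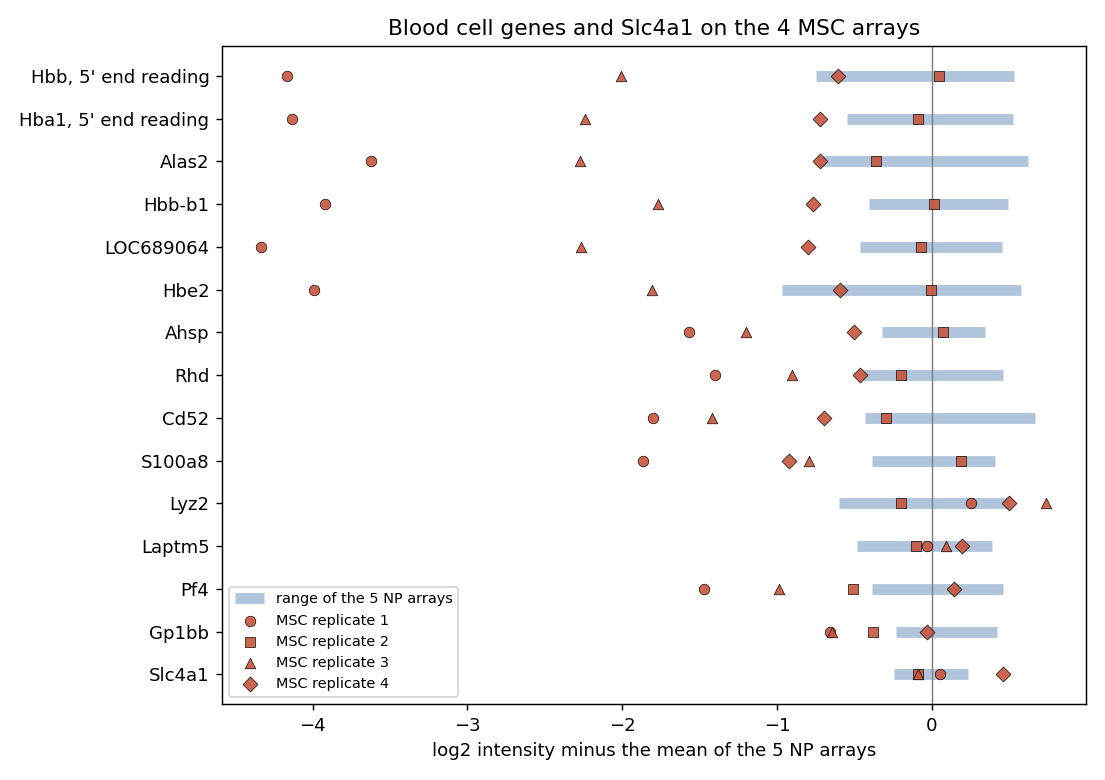
Log2 intensity on the 4 MSC arrays (red symbols, 1 shape per replicate) minus the mean of the 5 NP arrays (horizontal axis) for chosen genes (vertical axis). They are globin genes, Alas2, Ahsp, Rhd, the white cell genes Cd52, S100a8, Lyz2 and Laptm5, the platelet genes Pf4 and Gp1bb, and Slc4a1. Blue bars are the range of the 5 NP arrays. The platelet genes Gp9 and Itga2b, with log2 fold changes of -0.09 and -0.06, are not drawn. Of the red cell membrane list, with a median of -0.01, only Rhd is drawn. MSC replicate 1 is lowest from Hbb, at -4.17, down to S100a8, and MSC replicates 1 and 3 are the lowest pair for Pf4, while on Slc4a1 both lie within the NP bar.

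Of 9 measured genes that clear or break down haemoglobin and haem, 1 was lower at an unadjusted p under 0.05 (5.09% of all genes), Blvrb, which the list of other red cell genes also holds, and the median was 0.06. That median was 0.02 without NP replicate 1, 0.11 without NP replicate 3 and 0.0081 with median scaling. Slc40a1, the iron exporter ferroportin, differed by 0.20 (SE 0.09, FDR 0.438), and the ferritin chains Fth1 and Ftl by 0.05 (SE 0.15) and 0.13 (SE 0.18). Of the 8 markers of kidney segments, 2 were higher at an unadjusted p under 0.05 (6.61% of all genes), Slc12a3 at 0.59 (SE 0.21) and Slc12a1 at 0.50 (SE 0.19), the cotransporters of the distal convoluted tubule and the thick ascending limb, and the bright markers Umod and Aqp2 differed by 0.15 (SE 0.19) and 0.13 (SE 0.12). The fat genes, which mark tissue around the kidney, were higher on MSC replicates 3 and 4, with centred means of 1.78 and 1.19 against -0.93 and -0.01 on MSC replicates 1 and 2: of 10 measured, 3 were higher at an unadjusted p under 0.05 (6.61% of all genes), Adipoq at 1.43 (SE 0.51) and Cidec at 0.36 (SE 0.12) among them, while the brightest, Pck1 and Pnpla2, which other tissues also express, differed by -0.07 (SE 0.14) and -0.02 (SE 0.18). The fat signal did not divide the MSC kidneys as the globins did, since MSC replicates 1 and 3 stood at opposite ends of it.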

How the data were processed

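Gene expression was measured in 9 rat kidneys on 1-colour (Cy3) Agilent arrays. The deposited scanner files hold spot intensity on a linear scale from Agilent Feature Extraction; the authors took log2 values, normalised them with limma and deposited a log2 table, which was used as an alternative. Here the mean signal of each spot was taken as log2 and normalised by cyclic loess between arrays, outlier spots were left out, probes over 1.1 times the 0.95 quantile of the log2 negative controls on at least 4 arrays were kept (15641 of 30367), repeated spots were averaged and the probe of largest variance stood for a gene. MSC and NP were compared with limma 3.58.1 in R 4.3.3 with Benjamini-Hochberg FDR, with the thresholds stated above; the script was tested on simulated data. Number of arrays limits the precision. The study's methods describe removal of the left kidney of a donor, the labels do not number the donors, and p-values measure the spread between these kidneys. No pair of arrays held identical values. The members and gene lists were chosen with earlier results of these data known. Named genes were every probe of the 4 members, in each list the 2 of smallest p, the 2 brightest and any called, the SLC4 genes measured and the 5 genes of highest r for each member. Bpgm, outside that rule, was chosen after its value was seen. Symbols are the ones printed in the array files. Promoters came from RefSeq (GRCr8) and probe positions from the array files (rn4). Alternatives covered the signal column, background, normalisation, filter, probe choice, blocks and each array left out.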

Additional observations from a re-analysis of the deposited data

Results flagged for a closer look

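One array stood apart within its group in the 40 groups examined for an extreme value, where chance alone would give about 2. The centred mean of the 7 measured transcription factors of the red cell lineage was 0.11 in MSC replicate 4, while the other 3 MSC kidneys lay between -0.11 and -0.08, a gap of 0.857 of the group's whole range. The NP kidneys ran from -0.22 to 0.40 on the same measure, so the value was inside their range.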

How the results depend on the processing

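Over 26 alternatives, the log2 fold changes of Hbb, Hba1 and Alas2 stayed negative in every case. With 1 array left out they ran from -2.26 to -0.86 for Hbb, from -2.36 to -1.02 for Hba1 and from -2.20 to -1.12 for Alas2, the lowest without MSC replicate 2 and the highest without MSC replicate 1. With the brightest probe Hba1 was at -0.71. Slc4a1 kept its sign in 24 of 26 and ran from -0.04 without MSC replicate 4 to 0.16 within slide 2. No gene was called lower in 24 alternatives, and 2 were called higher with array weights. Genes lower at an unadjusted p numbered 407 with 75th percentile scaling, 1055 without a filter and 1160 with array weights, and 455 (without MSC replicate 3) to 1277 (without NP replicate 1) with 1 array left out. Genes higher numbered 292 with median scaling and 675 to 1019 with 1 array left out. The median of the globin list was -0.39 and that of the platelet list -0.0662 without a filter, which adds genes near background. The median of haem synthesis was -0.0479 with median scaling, and that of the red cell membrane was 0.15 with quantile normalisation, 0.11 with 75th percentile scaling, 0.0884 with median scaling and 0.12 with the brightest probe; the cause was not tested. A replicate block on the array numbers gave log2 fold changes of -1.66 for Hbb, -1.83 for Hba1, -1.77 for Alas2 and 0.10 for Slc4a1. The deviations of same-numbered kidneys correlated at 0.20, 0.33, -0.35 and 0.05, so that the numbers were not taken to pair the kidneys.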
